A study of Macaca mulatta with 24 samples.

Results

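The SOCS, CISH and PIM genes are brakes and survival signals that cytokine receptors switch on. They were followed in whole blood of rhesus macaques during the first week after total body irradiation with 4 Gy. The group holds 9 symbols, CISH, SOCS1 to SOCS5 and PIM1 to PIM3. Its members were found as every non-control probe whose gene name on the array was one of them. This gave 10 probes of 43603 and covered 7 of the 9 genes. CISH, SOCS3, SOCS5 and PIM2 had 1 probe each, and SOCS1, SOCS2 and SOCS4 had 2 each. No probe carried the name PIM1 or PIM3, and these 2 genes were not analysed here.

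When a cytokine binds its receptor, JAK kinases on the inner side of the receptor phosphorylate STAT transcription factors, which enter the nucleus and switch on target genes. CISH and SOCS proteins are among those targets. They dock on the receptor or the kinase through an SH2 domain, and their SOCS box recruits an elongin and cullin ubiquitin ligase that marks the signaling complex for degradation, so the pathway restrains itself. PIM kinases are also induced by STAT factors, and because they are active as soon as they are made, their activity follows their level. They phosphorylate regulators of survival, cell cycle and translation. In blood, CISH and SOCS2 are best known as brakes on signals through STAT5, SOCS1 as the brake on interferon signals, and SOCS3 as the brake on signals through the gp130 and G-CSF receptors.

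RNA from 24 blood samples was hybridised, 1 sample per array. The labels gave 7 pre-irradiation arrays (dose 0, day 0) and, after 4 Gy, 4 arrays at day 3, 6 at day 5 and 7 at day 7. Replicate numbers ran from 1 to 7 and stood for the animal, with 1 to 4 male and 5 to 7 female, so each irradiated sample had a pre-irradiation sample of the same animal. Day 3 held animals 1, 2, 4 and 7, and day 5 lacked animal 5. The study's methods described adult animals of Chinese origin with blood drawn before exposure. The labels named X-rays and the methods named cobalt gamma rays, so the radiation source was not settled. All samples went through the same RNA protocol, including globin depletion with a kit made for human blood. Sham-irradiated animals were not analysed here, so repeated bleeding and time were shared by all irradiated groups and cannot be told apart from radiation.

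Each of the 6 slides held 4 arrays, and scanning took place in 2 sessions. Session 1 held 6 pre-irradiation and 6 day 7 arrays. Session 2 held all day 3 and day 5 arrays with pre-irradiation replicate 5 and day 7 replicate 5, so the comparison of days 3 and 5 with pre-irradiation within a session rested on 1 pre-irradiation array. Before irradiation 49.6 to 53.1% of probes were well above background, and after it 48.3 to 61.2%. Day 7 replicate 2 was the dimmest array, with a median signal of 16.75 against 30.45 to 104.42 on the others. Values below are log2 processed signals after each array was shifted to the median array, and they show how 1 probe varies across arrays, not how 2 genes compare in level. The shift was set over the 27138 probes tested. When it was set over all probes, the median change of all genes was 0.16, 0.29 and 0.26 at days 3, 5 and 7 on the log2 scale in place of -0.0036, -0.0048 and -0.0117, and the share of changed genes that were higher went from 44 to 66.7%, from 40.6 to 71.6% and from 27.1 to 61.6%.

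The lineage markers fitted the labelled tissue before irradiation. On all 7 pre-irradiation arrays, 10 of 11 T-cell, 9 of 9 B-cell, 9 of 9 NK-cell, 7 of 8 monocyte, 12 of 13 neutrophil, 8 of 10 platelet and 10 of 11 erythroid marker genes tested were well above background. The marker signals then shifted. Counts at the adjusted p threshold of 0.005 stand beside 13.5, 15.3 and 9.85% of all genes at days 3, 5 and 7. Of all genes, 825 of 10886, 992 of 10889 and 782 of 10889 were lower at that threshold, and 648, 679 and 291 higher. All 9 B-cell markers were lower at each day, 8, 10 and 8 of 11 erythroid markers were lower at days 3, 5 and 7, and 10, 3 and 0 of 10 platelet markers were higher (at day 7, 2 had an unadjusted limma p under 0.05, 1 higher and 1 lower). Of the 10 platelet markers 2 were well above background on no pre-irradiation array, so they entered the test through irradiated arrays in which they were high and their calls are no independent support. Over all genes an unadjusted p under 0.05 was reached by 46.9, 43.9 and 38.2% at days 3, 5 and 7 against pre-irradiation, beside which the unadjusted counts of every gene list below stand. In whole blood, fewer cells of a type and less RNA per cell cannot be told apart, which holds for every value below.

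Each probe was a stretch of 60 bases, and its position was given by the scanner output on rheMac2. The CISH probe lay at chr2:85807592-85807651 on the plus strand, at base 1814 of its transcript. PIM2 was read at chrX:46770926-46770985 on the minus strand. The brighter SOCS1 probe lay at chr20:11329682-11329741 and the dimmer at chr20:11330367-11330426, both on the minus strand with starts 685 bases apart. The brighter SOCS2 probe lay at chr11:94796661-94796720 and the dimmer at chr11:94795439-94795498, both on the plus strand with starts 1222 bases apart. SOCS3 was read at chr16:73643698-73643757 on the minus strand, SOCS5 at chr13:46888171-46888230 on the plus strand, and SOCS4 at chr7:118060123-118060182 and chr7:118060392-118060451 on the plus strand.

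The sequences are shown because the calls rest on 1 probe for CISH and for PIM2, and because the paired probes of SOCS1 and SOCS2 read different parts of their transcripts. Of the CISH, PIM2 and brighter SOCS1 and SOCS2 probes, bases 31 to 60 are printed, and of the dimmer SOCS1 and SOCS2 probes the whole 60. In CISH the capitals mark a word of 12 bases that occurs at 2 places without overlap. In the dimmer SOCS1 probe they mark an ATG at its first bases.
CISH: ccTTTATTACCTCTttatTTTATTACCTCT
PIM2: ttcccctagcctagggtcccatattgggtc
SOCS1 brighter probe: gctacggggtgggtacctttcccctgcctg
SOCS1 dimmer probe: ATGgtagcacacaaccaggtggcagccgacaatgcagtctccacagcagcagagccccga
SOCS2 brighter probe: tgtttttcaaagtgtttatttactgctgtt
SOCS2 dimmer probe: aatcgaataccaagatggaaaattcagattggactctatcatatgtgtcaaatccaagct
The whole CISH probe was 25% G and C, and 0.41% of the probes tested were lower. The median of the probes tested was 43.3%. PIM2 stood at 45%, the SOCS1 probes at 53.3 and 60%, and the SOCS2 probes at 38.3 and 35%.

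CISH rose at all 3 days, the only member to pass the threshold at each. Its protein, an inhibitor induced by STAT5, competes for docking sites on receptors such as those of erythropoietin, IL-2 and IL-3. Before irradiation the CISH signal ran from 11.34 through a median of 11.92 to 12.18. At day 3 the 4 arrays read 13.06, 13.35, 13.65 and 13.77. Day 5 ran from 13.36 through 13.64 to 14.26, and day 7 from 11.84 through 13.48 to 13.68. Days 3 and 5 did not overlap with the pre-irradiation arrays at all, and at day 7 6 of 7 arrays lay above every pre-irradiation array.

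The CISH change was 1.63 ± 0.20 (SE) on the log2 scale at day 3, or 3.10-fold, with a limma adjusted p of 0.00026. Day 5 gave 1.93 ± 0.20, or 3.82-fold, with an adjusted p of 1.05e-05. Day 7 gave 1.39 ± 0.27, or 2.62-fold, with an adjusted p of 0.00146. The 95% intervals were 1.19 to 2.07, 1.51 to 2.36 and 0.83 to 1.96. Each animal was also higher than itself before exposure, by 1.11 to 1.86 in 4 of 4 animals at day 3, by 1.30 to 2.93 in 6 of 6 at day 5 and by 0.50 to 2.02 in 7 of 7 at day 7. These comparisons share the 7 pre-irradiation arrays, so they are not independent of each other.

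Of the 7 member genes, CISH alone was changed at day 3, CISH and PIM2 at day 5 and CISH alone at day 7, and all 4 of these calls were higher. The background, in either direction, was 13.5%, 15.3% and 9.85% of all genes tested on those days. The shares of the members, 1 of 7, 2 of 7 and 1 of 7, were thus near what all genes showed, and nothing about the group as a whole is read from them.

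**Figure D1:**
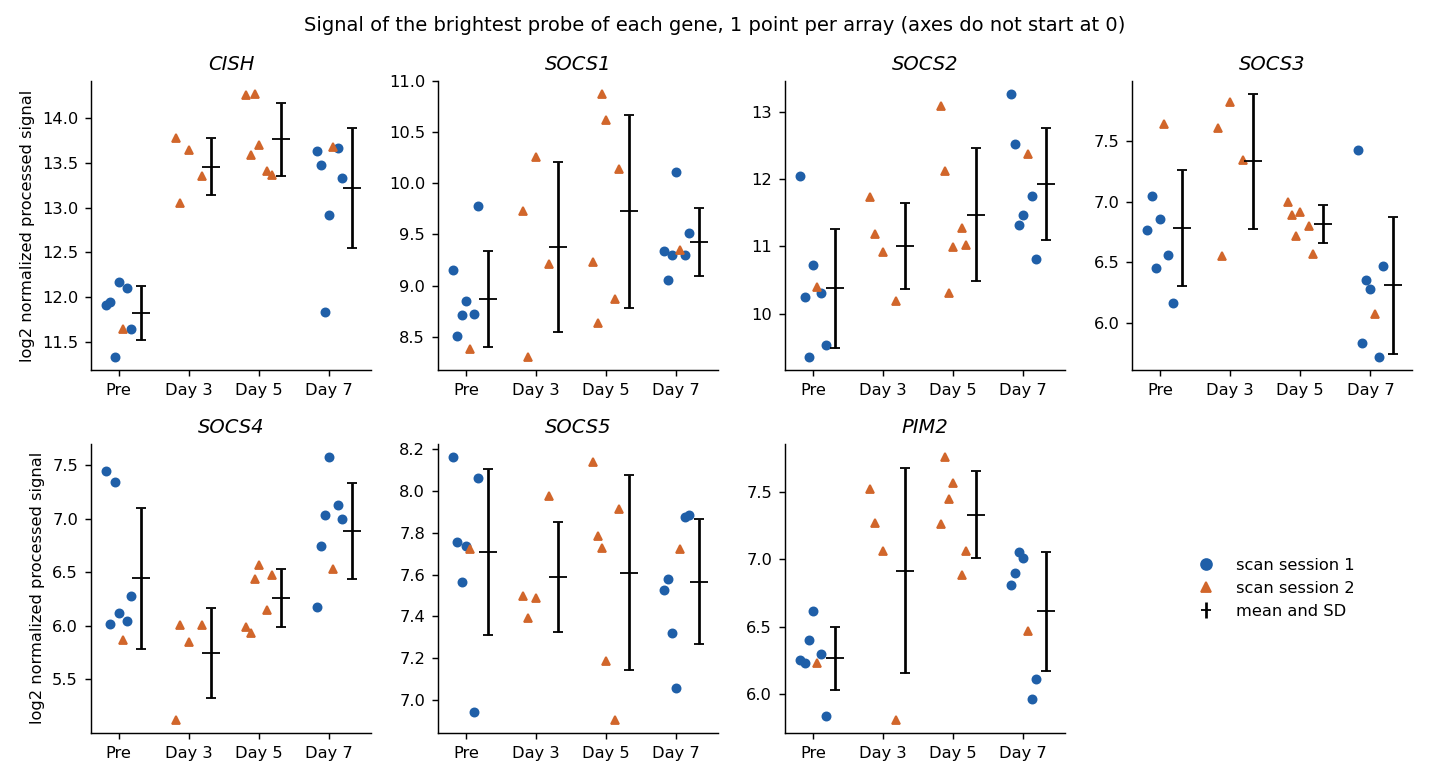
Log2 normalized processed signal (vertical axis) of the brightest probe of each of the 7 genes on the 24 arrays, by group, with the scan session as marker shape and the mean and SD as bars. CISH lies higher at every day with 1 low array at day 7 (11.84), PIM2 is highest at day 5, and SOCS5 has group means from 7.57 to 7.71.

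Pre-irradiation replicate 5, the only pre-irradiation array of session 2, read 11.65 and lay within the other pre-irradiation arrays. Within session 2, CISH was higher than that array by 1.80 at day 3 and 2.11 at day 5, with limma adjusted p-values of 0.123 and 0.0383 for 4 arrays against 1 and 6 against 1. The SE there assumes that the lone array varies like the others. With session as a block the values were 1.80 (adjusted p 0.0296) and 2.11 (adjusted p 0.00718). Within session 1, day 7 was higher by 1.29 (adjusted p 0.00809, 6 arrays against 6). With the animal as a block, CISH was higher by 1.53 at day 3 and missed the threshold (limma adjusted p 0.00601), by 1.91 at day 5 (0.000792) and by 1.39 at day 7 (0.00164). The low day 7 array was replicate 3, which was also the lowest before irradiation, and without animal 3 the day 7 change was 1.54 (adjusted p 0.000121). Leaving out animal 1, 2, 5 or 7 raised the day 7 adjusted p to between 0.0069 and 0.00849. Across 20 alternative settings at each day the CISH change was positive in all, at 1.53 to 1.84, 1.43 to 2.23 and 1.29 to 1.66. It passed the threshold in 15, 17 and 14. These settings are not all distinct. The one that lets any probe of a gene count repeats the reported fit, since CISH has 1 probe. At day 7 session 1 alone and leaving out animal 5 used the same arrays.

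**Figure D2:**
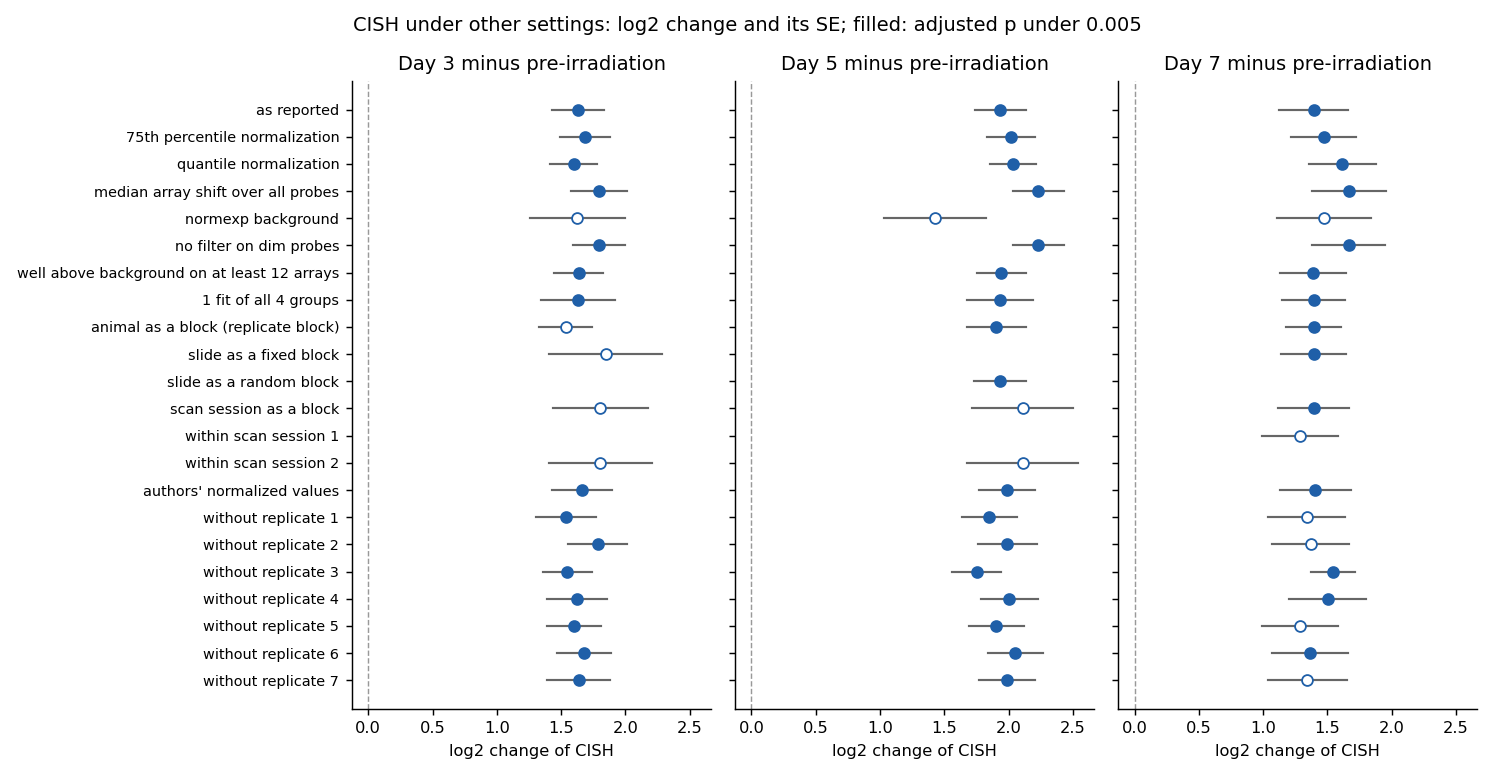
Log2 change of CISH against pre-irradiation (horizontal axis) at each day as reported and under each other setting (vertical axis), with the SE as bars and filled points where the limma adjusted p is under 0.005. Every point lies right of 0, and normexp background correction leaves the threshold unmet at all 3 days.

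PIM2 rose at day 5. PIM2 is the family member best known in lymphocytes, where cytokines raise it to sustain survival and translation. Its signal ran from 5.84 through 6.25 to 6.61 before irradiation and was well above background on 6 of those 7 arrays. At day 3 it read 5.81, 7.06, 7.27 and 7.52, at day 5 it ran from 6.89 through 7.35 to 7.76, and at day 7 from 5.96 through 6.81 to 7.05. All 6 day 5 arrays lay above all pre-irradiation arrays, as did 3 of 4 at day 3 and 4 of 7 at day 7. The low day 3 array was animal 7.

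The PIM2 change at day 5 was 1.06 ± 0.17 (SE) on the log2 scale, or 2.09-fold, with a 95% interval of 0.70 to 1.43 and a limma adjusted p of 0.000339. It was 0.65 ± 0.28 at day 3 (adjusted p 0.0944) and 0.35 ± 0.20 at day 7 (adjusted p 0.202). On leaving out an animal the day 3 value ran from 0.45 to 0.95, with limma adjusted p up to 0.319. It passed in 1 of 7 of these fits, without animal 7 (0.95, adjusted p 0.00495). Within animals PIM2 was higher in 3 of 4 at day 3 (-0.03 to 1.26), in 6 of 6 at day 5 (0.59 to 1.53) and in 6 of 7 at day 7 (-0.33 to 0.67). Against the 1 pre-irradiation array of session 2 the day 5 value was 1.10 (adjusted p 0.16), and with session as a block 1.10 (adjusted p 0.0711). With normexp background correction the day 5 change did not pass. From day 5 to day 7 PIM2 differed by -0.72 ± 0.22 (unadjusted p 0.00623, limma adjusted p 0.0911), which did not pass.

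SOCS2, the regulator of growth hormone signaling and a STAT5 target like CISH, was higher in every animal at days 5 and 7, and the day 7 change of its brighter probe passed the threshold, of the settings run for that probe, only with the animal as a block, with the shift set over all probes or without animal 1. On the brighter probe the signal ran from 9.35 through 10.31 to 12.05 before irradiation, read 10.19, 10.91, 11.19 and 11.73 at day 3, and ran from 10.30 through 11.15 to 13.09 at day 5 and from 10.81 through 11.75 to 13.26 at day 7. The groups overlapped, since animal 1 had the highest pre-irradiation value and 3 of 7 day 7 arrays lay above it. The change was 0.63 ± 0.46 (SE) at day 3 (limma adjusted p 0.297), 1.09 ± 0.47 at day 5 (0.0855) and 1.56 ± 0.42 at day 7 (0.0134), on the log2 scale.

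Within animals the brighter probe was higher in 3 of 4 at day 3, in 6 of 6 at day 5 by 0.27 to 1.88 and in 7 of 7 at day 7 by 0.75 to 2.27. With the animal as a block the day 7 change of 1.56 had an SE of 0.21 and passed (limma adjusted p 0.00089), and the day 5 change of 1.10 did not (0.00509). The dimmer probe was well above background on 1 of 7 pre-irradiation arrays, 2 of 4 at day 3, 6 of 6 at day 5 and 7 of 7 at day 7. It ran from 3.30 through 4.53 to 6.16 before irradiation and from 5.60 through 6.50 to 7.25 at day 7, with 4 of 7 day 7 arrays above all pre-irradiation arrays. It entered the test through the irradiated arrays, and on 6 of the 7 pre-irradiation arrays its signal was not well above background, so its fitted changes of 1.98 ± 0.49 at day 5 (limma adjusted p 0.00643) and 1.91 ± 0.43 at day 7 (0.00432) are given as values and not counted as a call of SOCS2. Over the 24 arrays the SOCS2 probes correlated with r = 0.92, given as a description.

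**Figure D3:**
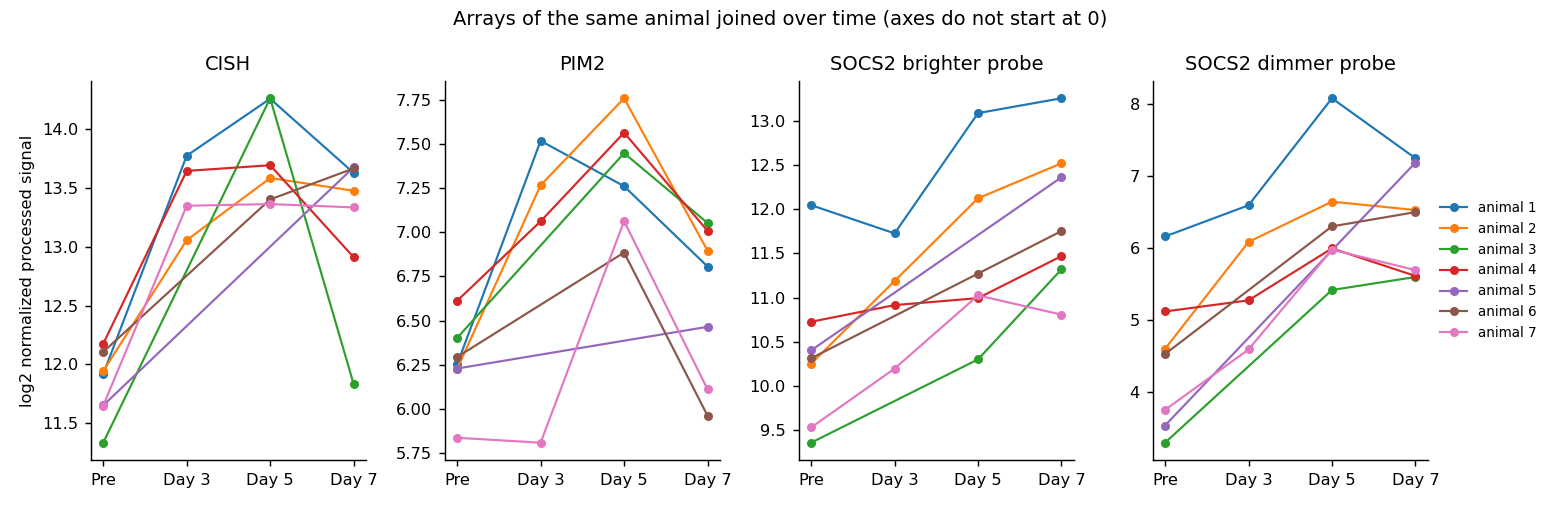
Log2 normalized processed signal (vertical axis) of CISH, PIM2 and both SOCS2 probes with the arrays of each animal joined over time. Every CISH line ends above its start, by 0.50 to 2.02 at day 7, and the SOCS2 lines rise from spread starting levels (9.35 to 12.05 on the brighter probe).

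SOCS1, the feedback inhibitor of interferon signals, did not pass the threshold at any day on its brighter probe. This probe ran from 8.38 through 8.72 to 9.78 before irradiation, read 8.30, 9.21, 9.73 and 10.26 at day 3, and ran from 8.63 through 9.69 to 10.87 at day 5 and from 9.06 through 9.34 to 10.11 at day 7. The groups overlapped at every day, and 3 of 6 day 5 arrays lay above all pre-irradiation arrays. The changes were 0.50 ± 0.36 (SE), 0.86 ± 0.37 and 0.55 ± 0.22 on the log2 scale, with limma adjusted p-values of 0.285, 0.0871 and 0.0723. Within animals it was higher in 2 of 4 at day 3 (-0.57 to 1.41), in 6 of 6 at day 5 and in 6 of 7 at day 7 (-0.27 to 1.27). At day 5 animals 3 and 4 differed by 2.16 and 1.77 and the other 4 by 0.08 to 0.36. The day 3 change ran from 0.21 without animal 4 to 0.80 without animal 2.

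The dimmer SOCS1 probe, which begins with the ATG shown above, was well above background on none of the 7 pre-irradiation arrays and on 3 of 4, 6 of 6 and 5 of 7 arrays at days 3, 5 and 7. Its group means were 4.86 before irradiation and 5.83, 6.74 and 5.64 after it. As folds these are bounds against the lowest signal well above background on each pre-irradiation array or the probe's own signal, whichever was higher, and came to at least 1.78-fold at day 3 (limma adjusted p 0.0799), at least 3.33-fold at day 5 (0.00512) and at least 1.55-fold at day 7 (0.0495). None passed the threshold. The SOCS1 probes correlated with r = 0.58 over the 24 arrays.

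SOCS3, SOCS4 and SOCS5 did not pass on any day. SOCS3, the brake on gp130 and G-CSF receptor signals, had group means of 6.79 before irradiation and 7.33, 6.82 and 6.31 at days 3, 5 and 7. Its arrays ran from 6.16 to 7.64 before irradiation, from 6.55 to 7.82 at day 3, from 6.57 to 7.00 at day 5 and from 5.72 to 7.43 at day 7. Within animals SOCS3 was higher in 3 of 4, 5 of 6 and 2 of 7. The SOCS3 changes were 0.55 ± 0.30 (SE), 0.03 ± 0.21 and -0.47 ± 0.27 (limma adjusted p 0.17, 0.929 and 0.205). The highest pre-irradiation SOCS3 array was the one of session 2, and against it alone the day 3 and day 5 values turned to -0.31 and -0.83.

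SOCS4 and SOCS5 are less studied members, both linked to signaling of the EGF receptor. The brighter SOCS4 probe ran from 5.87 through 6.12 to 7.44 before irradiation, read 5.12, 5.85, 6.01 and 6.01 at day 3, and ran from 5.93 through 6.29 to 6.57 at day 5 and from 6.18 through 6.99 to 7.58 at day 7. Its changes were -0.70 ± 0.34 (SE), -0.19 ± 0.27 and 0.44 ± 0.29 (limma adjusted p 0.128, 0.632 and 0.274), and on its dimmer probe -0.34, -0.05 and 0.62. The direction of the brighter SOCS4 probe was not stable, at 0.05 on day 3 with slide as a block and 0.39 on day 5 both with session as a block and within session 2. The SOCS4 probes correlated with r = 0.64 over the 24 arrays. The brighter SOCS4 probe was lower than in the same animal before exposure in 4 of 4 on day 3 and higher in 3 of 6 and 5 of 7 on days 5 and 7. The day 3 differences ran from -2.32 in animal 1 to -0.01 in animal 2. On leaving out an animal the day 3 change lay between -0.86 and -0.33. On the dimmer SOCS4 probe 3 of 4 animals were lower on day 3 and 1 was higher. SOCS5 had group means from 7.57 to 7.71 and changes of -0.12 ± 0.23, -0.10 ± 0.23 and -0.14 ± 0.20. Within animals SOCS5 was lower in 4 of 4 on day 3, with differences from -0.66 to -0.08, in 4 of 6 on day 5 and in 5 of 7 on day 7. The 95% intervals of the SOCS5 changes were -0.61 to 0.38, -0.60 to 0.40 and -0.56 to 0.28, so a 2-fold change lay outside them. With the shift set over all probes the SOCS5 values were 0.05, 0.20 and 0.13.

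**Figure D4:**
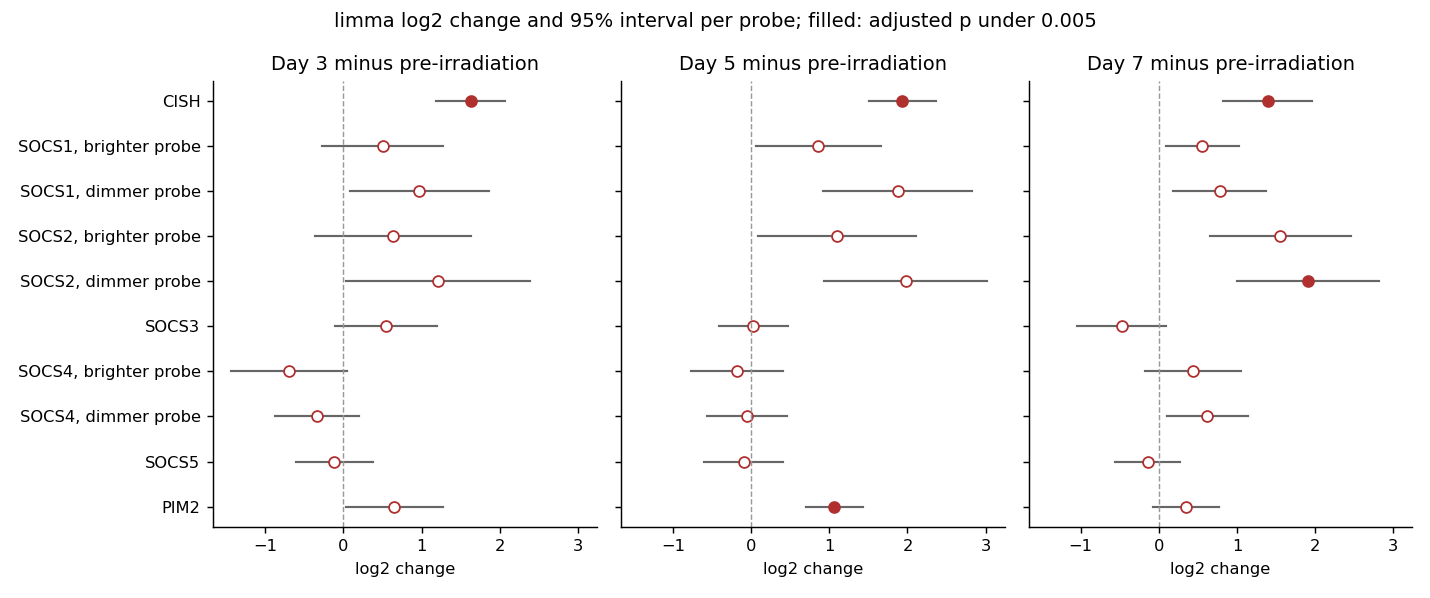
Log2 change against pre-irradiation (horizontal axis) of each of the 10 probes (vertical axis) at days 3, 5 and 7, with the limma 95% interval as bars and filled points where the adjusted p is under 0.005. CISH is filled at all 3 days, PIM2 at day 5 and the dimmer SOCS2 probe at day 7, where most pre-irradiation arrays were not well above background.

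Between the irradiated days no member passed the limma threshold. The background was 0.0367% of all genes for day 5 against day 3, 1.63% for day 7 against day 3 and 0.00918% for day 7 against day 5, so few genes of any kind did. At an unadjusted p under 0.05 there were 1, 2 and 2 of 7 members, and 11.1, 34.2 and 21% of all genes, so the members are not set apart by these counts. SOCS4 was in all 3 of these and SOCS3 and PIM2 in 1 each. From day 3 to day 7 the brighter SOCS4 probe differed by 1.14 ± 0.28 (SE, 95% interval 0.54 to 1.74, adjusted p 0.0191) and its dimmer probe by 0.96 ± 0.33 (0.069). SOCS3 differed the other way, by -1.02 ± 0.33 (adjusted p 0.0562). CISH on day 5 differed from day 3 by 0.30 ± 0.24 (95% interval -0.23 to 0.84). On day 7 it differed from day 3 by -0.24 ± 0.34 (-0.98 to 0.50) and from day 5 by -0.54 ± 0.30 (-1.18 to 0.10). All day 3 and day 5 arrays were scanned in session 2 and 6 of 7 day 7 arrays in session 1, so in the differences of day 7 from days 3 and 5 the day and the session largely cannot be told apart.

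Over the 24 arrays CISH correlated with SOCS2 (r = 0.56) and PIM2 (r = 0.53), and after each group's mean was taken out the values were 0.39 and -0.11. SOCS3 and SOCS4 ran against each other (r = -0.66, and -0.44 after group means were taken out). Among 10658 other genes, the ones most like CISH were GPAT4 (r = 0.88), RAB24 (r = 0.88) and NOD2 (r = 0.86), and after group means were taken out their r was 0.73, 0.70 and 0.73. GPAT4 makes glycerolipids, RAB24 is a small GTPase linked to autophagy and NOD2 is a sensor of bacterial cell wall. Most like PIM2 were EQTN (0.82), CABP5 (0.80) and CCDC58 (0.79). These are descriptions over arrays that share animals, days and sessions.

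Some of the JAK and STAT genes also rose, and a link of their changes to that of CISH was not tested. Of 10 JAK and STAT genes tested, 4 rose on day 3, 4 on day 5 and 1 on day 7, and none fell. The background for this and the lists that follow was 13.5%, 15.3% and 9.85% of all genes on days 3, 5 and 7, and with the animal as a block 368 of 10886, 1532 of 10889 and 883 of 10889 genes. The day 7 count of the JAK and STAT genes was at the background. TYK2, a kinase of interferon and IL-12 receptors, rose by 1.06 ± 0.16 (SE, log2) and 0.85 ± 0.12 on days 3 and 5 (limma adjusted p 0.000718 and 0.000162), and STAT3 by 1.02 and 0.83. JAK2, the kinase of the erythropoietin and growth hormone receptors, rose by 1.02 on day 3, STAT5A, an activator of CISH, by 0.77 on day 5 and JAK1 by 1.10 on day 7. The list median was 1.003, 0.799 and 0.286 on the log2 scale, beside -0.0036, -0.0048 and -0.0117 over all genes. With the animal as a block 0, 2 and 0 of the 10 passed. Over this and the following lists, 10 of 44 changes past the threshold still passed with session as a block.

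Of 21 receptor chains that signal through JAK kinases, 2 were higher and 1 lower on day 3, 3 higher and 1 lower on day 5, and 1 higher on day 7 (medians 0.73, 0.52 and 0.30). These 3, 4 and 1 calls of 21 were near or below the background of 13.5%, 15.3% and 9.85%. CSF3R, the G-CSF receptor, which is also in the neutrophil marker list, rose by 1.72 ± 0.26 (SE) and 1.82 ± 0.21 on days 3 and 5, and IL12RB1 rose by 1.33, 1.13 and 1.24 on the 3 days. IL7R, which lymphocytes need for survival, had changes of -1.97 and -1.25 on days 3 and 5, both past the threshold. With the animal as a block 1, 2 and 1 of the 21 passed.

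**Figure D5:**
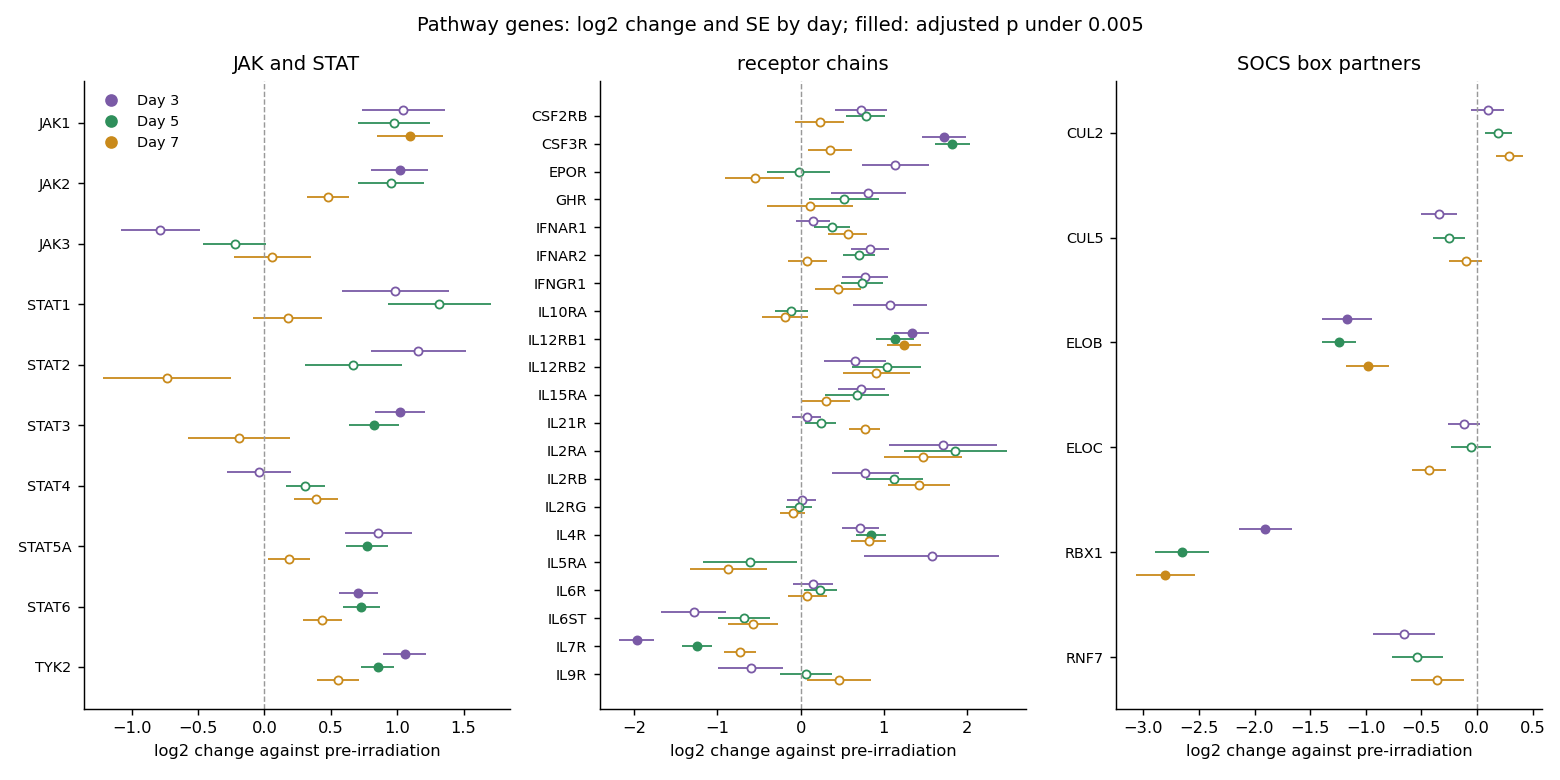
Log2 change against pre-irradiation (horizontal axis) with its SE for tested JAK and STAT genes, receptor chains and listed SOCS box partners. Points are coloured by day and filled where the limma adjusted p is under 0.005. RBX1 lies at -1.90, -2.65 and -2.80, IL7R at -1.97 on day 3, and the filled JAK and STAT points all lie right of 0.

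Of 6 elongin and cullin ligase genes listed as partners of the SOCS box, 2 fell on each day and none rose (medians -0.50, -0.39 and -0.40). Over all genes 825 of 10886, 992 of 10889 and 782 of 10889 fell. The 2 listed genes were RBX1, a RING subunit of cullin ligases, and ELOB, the elongin B that binds the SOCS box. RBX1 had changes of -1.90, -2.65 and -2.80 (log2, SE 0.24, 0.24 and 0.27) and ELOB of -1.17, -1.24 and -0.98. Whether RBX1 acts with the SOCS box in these cells was not tested. With the animal as a block 1, 2 and 1 passed. Of 13 other brakes on cytokine signaling 0, 1 and 0 passed by limma, with 6 and 3 at an unadjusted p under 0.05 on days 3 and 7 (medians 0.39, 0.09 and 0.30). That gene was CBL, an E3 ligase of receptors, which rose by 1.37 on day 5, and the animal block left these counts as they were.

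Among 16 PIM substrates and partners, 1 was higher and 2 lower on day 3, 1 higher and 1 lower on day 5, and 2 higher on day 7 (medians -0.26, -0.16 and -0.21), again near the 13.5%, 15.3% and 9.85% of all genes. CDKN1A, the cell cycle inhibitor that p53 switches on after DNA damage, rose by 3.40 ± 0.18 (SE), 2.01 ± 0.19 and 1.01 ± 0.18. MYC had changes of -2.56 and -1.96 on days 3 and 5 and HSP90AB1 of -0.92 on day 3, all past the threshold, and CDC25C, a phosphatase for entry into mitosis, rose by 1.74 on day 7. With the animal as a block 1, 2 and 3 passed. Of 22 other STAT target genes, 2 were higher and 2 lower on day 3, 5 higher and 2 lower on day 5, and 1 higher and 1 lower on day 7 (medians 0.82, 0.84 and 0.60; 2, 6 and 4 with the animal block). The day 3 and day 7 counts, 4 and 2 of 22, were near the background, and the day 5 count of 7 stood beside 15.3%. BCL2L1, the gene of the survival protein BCL-xL, which erythroid cells express strongly, had changes of -2.95, -3.76 and -2.98. TIMP1 rose by 2.85 and 1.34 on days 3 and 5, CCND2 rose by 1.11 on day 7, and MYC is also in this list.

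Of 22 interferon-stimulated genes 0, 2 and 0 passed by limma (11, 16 and 5 at an unadjusted p under 0.05, against 46.9, 43.9 and 38.2% of all genes), with medians of 1.41, 1.75 and 0.49 and 0, 5 and 0 past the threshold with the animal block. CXCL10 rose by 2.99 ± 0.66 (SE) and EIF2AK2 by 1.75 ± 0.34 on day 5.

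Marker levels moved beside these results. The counts of markers past the threshold stand beside 13.5, 15.3 and 9.85% of all genes on days 3, 5 and 7. The mean log2 signal of the B-cell markers was 10.61 to 10.94 before irradiation and 6.24 to 7.77 after it, and that of the erythroid markers 13.29 to 14.56 and 7.97 to 12.55. The platelet markers stood at 9.26 to 10.81 before irradiation and at 12.59 to 13.61, 10.65 to 11.85 and 9.74 to 11.35 on days 3, 5 and 7. Monocyte markers stood at 11.35 to 12.07, then at 12.47 to 12.98, 11.98 to 12.68 and 11.43 to 12.80, with 2, 2 and 1 of 8 higher. Neutrophil markers stood at 11.47 to 12.70, then at 12.14 to 13.92, 12.21 to 13.56 and 12.16 to 14.53, with 2, 3 and 3 of 13 higher. Of these 13, 1 was well above background on no pre-irradiation array. It entered the test and these means through irradiated arrays. Of 6 plasma-cell markers 4 fell on day 3, and 3 fell and 1 rose on day 5, and of 7 basophil and eosinophil markers 0, 1 and 1 were lower. None of 11 T-cell and none of 9 NK-cell markers passed the limma threshold on any day, with 4, 2 and 3 T-cell and 2, 1 and 1 NK-cell markers at an unadjusted p under 0.05. The part of these shifts in the values of CISH, PIM2, SOCS2 and the pathway genes was not tested.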

How the data were processed

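RNA of 24 rhesus whole blood samples was measured on one-colour Agilent rhesus arrays. Per the labels the scans were read with Feature Extraction 10.7, while the file headers named modules of version 12.0.2.2, and the methods named a human array. The authors' scanner output gave a processed signal, an intensity with the background subtracted. The authors' deposited matrix held log2 values normalized to the median array for 18497 probes that could be matched. It was used as an alternative and held 9 of the 10 member probes.

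Here log2 of the processed signal was taken, spots marked as outliers were left out and saturated spots kept, and the spots of a probe were averaged. The test took in 27138 probes, those well above background on 4 or more of the 24 arrays. Each array was shifted to the median array over those probes, by -2.03 to 0.87. The scanner output named 23054 of 43603 probes and accessions 898 more, and a gene was represented by its brightest tested probe. All 10 member probes were tested.

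Each comparison used limma 3.58.1 (R 4.3.3, statmod 1.5.0) on its 2 groups alone, two-sided, with Benjamini-Hochberg adjustment over all probes tested and a threshold of 0.005. The computation was tested on simulated data. Figures used matplotlib 3.10.9. Same-numbered arrays deviated together (r with the pre-irradiation arrays from 0.133 to 0.409, from 0.171 to 0.458 and from 0.129 to 0.44 on days 3, 5 and 7), so the animal was used as a block in an alternative. The number of arrays limits the precision, and the array gives no count of molecules.

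The members and the gene lists were chosen with earlier results of these data known. Named were all members, up to 3 genes with the largest change among those past the threshold in each pathway list and day, and the 3 genes most like each member that passed. The alternatives were other normalizations, normexp background correction with an offset of 50, other filters (none, or 12 arrays), 1 fit of all groups, the animal, slide or session as a block, single sessions, the authors' log2 values, another probe of the gene and leaving out each animal.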

Additional observations from a re-analysis of the deposited data

Results flagged for a closer look

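The CISH signal of day 7 replicate 3 was 11.84 on the log2 scale, far below the other 6 day 7 arrays, of which the next lowest read 12.91. It was the only 1 of 28 combinations of gene and group in which an extreme array stood apart by this measure, and chance alone marks about 1 in 20 groups. Animal 3 also had the lowest CISH value before irradiation, and its own difference was 0.50.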

How the results depend on the processing

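The counts of members past the threshold were 1, 2 and 1 at days 3, 5 and 7. With normexp background correction they were 0, 0 and 0, when 90, 131 and 168 of all genes passed. With session as a block they were 0 at day 3 and 0 at day 5, and within session 2 alone 0 and 0. Within session 1 the day 7 count was 0, from the same arrays as without animal 5. With slide as a fixed block the day 3 count was 0, and no gene of any kind passed. At day 7 the count was 2 (CISH and SOCS2) with the shift set over all probes and 2 when any probe of a gene could count, a choice that favours genes with several probes and here rests on a SOCS2 probe near background before irradiation. Leaving out each animal gave 1 to 2 at day 3, 2 at day 5 and 0 to 1 at day 7, where CISH was lost without animal 1, 2, 5 or 7 and SOCS2 passed without animal 1. At day 3 PIM2 passed as well without animal 7. The counts between days stayed at 0 in every alternative run.

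The replicate numbers paired the arrays by animal. With this pairing as a replicate block the counts were 0 at day 3, 2 at day 5 and 2 at day 7 (CISH and SOCS2), and 368, 1532 and 883 of all genes passed against 1473, 1671 and 1073 without it. It changed no other call of a member.

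Some values turned in sign, none past the threshold in either setting, among them SOCS4 at day 3 (-0.70 as reported) and SOCS3 at day 3 (0.55). SOCS3 at day 5 was -0.03 with quantile normalization, -0.83 with session as a block and within session 2 and -0.03 to 0.17 on leaving out an animal, where it was -0.01 without animal 1, 3 or 6. SOCS3 at day 3 was -0.06 with the slide block and -0.31 with session as a block or within session 2. SOCS4 was 0.05 at day 3 with the slide block, and at day 5 it was 0.11 with the all-probe shift or no filter, 0.32 with normexp, 0.39 with session as a block or within session 2 and -0.30 to 0.03 on leaving out an animal. SOCS5 was 0.05, 0.20 and 0.13 at days 3, 5 and 7 with the all-probe shift or no filter, 0.17, 0.30 and 0.06 with normexp, and 0.01 at day 3 with the slide block. The causes were not tested.

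For the pathway genes the alternatives were chosen after seeing the data. The 44 changes past the threshold kept their direction in every alternative that measured them. Of 44, 6 still passed with normexp and 24 with the animal block, 10 with session as a block, 1 of 35 within session 2 alone, and 23 to 38 on leaving out an animal. The slide as a fixed block was not run at day 5, where a random block was used.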
